A study of Mus musculus with 12 samples.

Results

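Oncofetal genes are genes that are active in the fetal liver, are largely silent in the adult organ, and are often active again in liver tumours. The set described here holds 8 of the 55357 genes in the count table, taken by gene symbol: Afp, H19, Igf2, Gpc3, Meg3, Dlk1, Igf2bp3 and Lin28b. They were measured by RNA-seq in whole liver of male C57BL/6J mice after 6 weeks of diet. All mice carried floxed Ppara alleles (PPARafl/fl). WT mice lacked the Cre transgene, and KO mice carried Cre under the Albumin promoter, which is active in hepatocytes, so that other liver cells keep their Ppara. The diets were chow and CDAHFD, a high-fat diet with defined amino acids and no choline, and both were started at 7 weeks of age. The groups were WT chow (4 libraries), WT CDAHFD (3), KO chow (2) and KO CDAHFD (3), and a library was treated as 1 mouse.

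Afp, alpha-fetoprotein, is the plasma carrier protein of the fetus, and its gene is shut down in hepatocytes after birth. H19 and Meg3 are long non-coding RNAs made from the maternal chromosome, and Igf2 and Dlk1 are their paternally expressed neighbours, so that 4 of the 8 genes lie in a pair of imprinted domains. Gpc3 is a heparan sulfate proteoglycan of the cell surface, Igf2bp3 binds messenger RNAs such as that of Igf2, and Lin28b blocks the maturation of let-7 microRNAs. Relative to WT chow, Afp, H19, Meg3 and Dlk1 were higher in each of the other 3 groups, and Igf2bp3 was higher in KO chow. Over all genes tested, 22% to 26.9% were higher in these comparisons. H19 was highest in KO chow, whereas Meg3 was highest in the livers on CDAHFD. Gpc3 did not pass the threshold in any comparison, and Igf2 and Lin28b were at or near 0 counts in every library.

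Total counts per library ran from 29906785 to 43551003, so that a gene with no count could hold up to 3 counts, equal to 0.0583 to 0.138 CPM (read counts normalised to a common library size with TMM). Of the 55357 genes, 17358 passed the filter on low counts, with 6 of the 8 oncofetal genes among them. H19, Dlk1 and Igf2bp3 had fewer than 10 counts in each WT chow library and were tested because of their counts in the other groups, so their tests against WT chow were not blind to a difference. Ppara, the targeted gene, had 96.2 to 237.8 CPM in WT chow, 59.5 to 75.5 in WT CDAHFD, 14.4 and 38.7 in KO chow and 20.7 to 51.9 in KO CDAHFD. It was lower in KO chow than in WT chow by a log2 fold change of -2.68 (BH-adjusted p = 0.00111), whereas KO CDAHFD and WT CDAHFD did not overlap but differed by -0.94 (BH-adjusted p = 0.547, unadjusted p = 0.0432), short of the threshold. This bears on each comparison of the genotypes on CDAHFD. The 8 hepatocyte markers summed to at least 42663 CPM in every library. The TMM factors ran from 0.729 to 0.827 in WT chow and from 1.03 to 1.26 in the other groups, and scaling by library size alone moved the median difference from WT chow over all genes to 0.40 (KO chow), 0.51 (WT CDAHFD) and 0.57 (KO CDAHFD) on the log2 scale. The bulk RNA cannot tell more cells of a type from more RNA per cell, which holds for all values below.

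**Figure D1:**
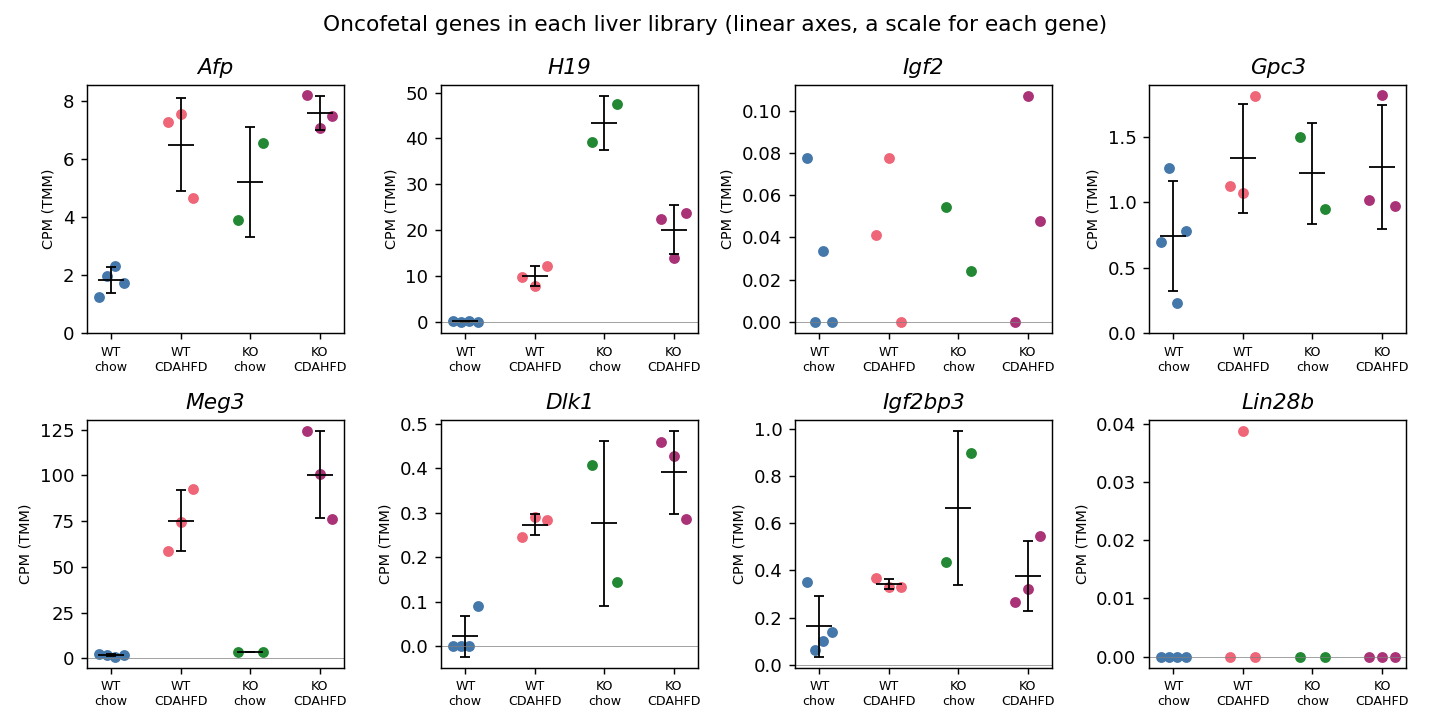
Expression of the 8 oncofetal genes in each library, in CPM on a linear axis of its own for each gene. Points are libraries, and bars are the group mean ± SD (not drawn for Igf2 and Lin28b, which have 0 to 4 counts per library). The WT chow points of Afp, H19, Meg3 and Dlk1 lie below those of all other groups, while those of Gpc3 overlap them.

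Afp was expressed at a low level in WT chow and at about 3 to 4 times that level in the other groups. Afp (ENSMUSG00000054932) lies on the plus strand of chromosome 5 of GRCm38 from 90490737 to 90508907, between Alb and Afm, other genes of the albumin family. It had 1.24, 1.98, 2.30 and 1.74 CPM in WT chow, from 32 to 69 counts. It had 7.29, 7.55 and 4.65 CPM in WT CDAHFD, 3.89 and 6.57 in KO chow and 8.22, 7.08 and 7.49 in KO CDAHFD. No library of another group fell as low as the highest WT chow library. Afp rose 2.86-fold in KO chow, a log2 fold change of 1.52 with a standard error (SE) of 0.27 (BH-adjusted p = 7.94e-04, where BH-adjusted p is the Benjamini-Hochberg value of the quasi-likelihood test in edgeR). It was 1.83 (SE 0.25, BH-adjusted p = 5.34e-05) in WT CDAHFD and 2.06 (SE 0.25, BH-adjusted p = 1.90e-05) in KO CDAHFD. The order of the group means was KO CDAHFD, WT CDAHFD, KO chow and WT chow, and the upper 3 did not differ from each other past the threshold. KO CDAHFD and WT CDAHFD differed by 0.22 (95% confidence interval -0.32 to 0.76), and KO CDAHFD and KO chow by 0.54 (-0.08 to 1.15). The effect of the diet was 1.29 smaller on the log2 scale in KO than in WT livers by the interaction term (-1.29, SE 0.37, BH-adjusted p = 0.0243). That call was lost with the replicate number as a block (-1.21, BH-adjusted p = 0.0756) and without WT CDAHFD replicate 1 (BH-adjusted p = 0.061), WT CDAHFD replicate 2 (0.0651), KO chow replicate 2 (0.151) or KO CDAHFD replicate 2 (0.0554).

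The 300 bases around the RefSeq start of Afp, 250 before and 50 after it, are shown because Zhx2, Zbtb20 and Zfhx3, repressors of Afp, and Nr5a2, an activator, are measured below. Windows were found for 7 of the 8 genes, all but H19 (RefSeq, GRCm38.p6). Capitals mark TATAAA at -7 and a CCAAT box, read as ATTGG, at -98 from the RefSeq start. Each motif was searched on both strands. TATAAA is found in 13.62% of 32851 windows of this length and CCAAT in 37.41%. The window, on the plus strand at chr5:90490464-90490763, holds 3 CpG, against a median of 7 over all windows.
Afp: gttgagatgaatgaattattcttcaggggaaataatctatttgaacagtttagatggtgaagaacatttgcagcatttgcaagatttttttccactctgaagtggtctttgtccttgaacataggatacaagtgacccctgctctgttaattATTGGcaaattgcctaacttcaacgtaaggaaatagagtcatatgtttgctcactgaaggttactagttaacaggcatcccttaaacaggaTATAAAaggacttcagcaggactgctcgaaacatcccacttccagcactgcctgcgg

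The neighbours of Afp did not rise with it. Alb, serum albumin, was at a mean of 68664 CPM in WT chow and 37800 CPM in WT CDAHFD, with log2 fold changes of -0.86 (SE 0.17, BH-adjusted p = 9.00e-04) in WT CDAHFD, -0.94 (SE 0.17, BH-adjusted p = 4.33e-04) in KO CDAHFD and -0.20 (SE 0.19, BH-adjusted p = 0.419) in KO chow. Afm, afamin, a vitamin E carrier, fell in all 3 groups, by 1.39 in WT CDAHFD, 1.12 in KO CDAHFD and 0.70 in KO chow on the log2 scale. Gc, the vitamin D binding protein, fell by 0.55 (BH-adjusted p = 0.00135) in WT CDAHFD and by 0.60 (BH-adjusted p = 7.36e-04) in KO CDAHFD, and differed by -0.09 (BH-adjusted p = 0.593) in KO chow. With scaling by library size alone, 1 of these 3 genes was higher and none lower in KO chow, and 2 of 3 remained lower in each group on CDAHFD.

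Of 15 repressors of Afp and liver transcription factors, none was higher. In KO chow 9 were lower, beside 7 and 8 in the WT and KO groups on CDAHFD. Their median log2 fold changes were -0.59, -0.41 and -0.65, against 0.00, -0.05 and -0.04 over all genes tested. Of all genes tested, 17%, 25% and 25.4% were lower in the same order. Zhx2, a repressor that keeps Afp and H19 low in adult mouse liver, had 24.2 to 26.8 CPM in WT chow, 18.4, 21.9 and 20.2 in WT CDAHFD, 18.8 and 16.9 in KO chow and 19.7, 18.2 and 17.3 in KO CDAHFD. It fell by 0.54 (SE 0.12, BH-adjusted p = 0.00251) in KO chow, 0.36 (SE 0.10, BH-adjusted p = 0.00884) in WT CDAHFD and 0.50 (SE 0.10, BH-adjusted p = 0.00113) in KO CDAHFD on the log2 scale. Zbtb20, the other main repressor of Afp after birth, differed by -0.59, -0.18 and -0.28 in the same order (BH-adjusted p = 0.209, 0.643 and 0.479). Zfhx3 differed by -0.49, -0.29 and -0.23 (BH-adjusted p = 0.148, 0.298 and 0.396). Nr5a2, an activator of Afp, fell by 0.46, 0.79 and 0.80, and Cebpa by 1.27, 1.15 and 0.92. With scaling by library size alone, 3, 1 and none of the 15 genes were lower in KO chow, in WT CDAHFD and then in KO CDAHFD, so the counts depend on the scaling. At that scaling 1149, 1170 and 1095 of all 17358 genes tested were lower.

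H19 was close to absent in WT chow, and present in every library of the other groups. H19 (ENSMUSG00000000031) lies on the minus strand of chromosome 7 from 142575529 to 142578143, with Igf2 (ENSMUSG00000048583, 142650766 to 142666816) next to it on the same strand, where both genes share enhancers and a methylated control region. In WT chow, H19 had 3, 0, 2 and 1 counts. It had 478, 400 and 554 counts (9.79, 7.77 and 12.1 CPM) in WT CDAHFD, 1443 and 1958 counts (39.2 and 47.5 CPM) in KO chow, and 928, 522 and 998 counts (22.5, 14 and 23.7 CPM) in KO CDAHFD. Groups did not overlap, and every library of KO chow was above every library of KO CDAHFD, which was above every library of WT CDAHFD. The ratio to WT chow, from pooled counts over scaled library sizes, was 179 in WT CDAHFD (exact 95% counting interval 81.9 to 488), 794 in KO chow (365 to 2166) and 370 in KO CDAHFD (170 to 1008). The counting error of 6 counts in all of WT chow sets these intervals. By the fit, whose fold changes depend on the prior count at such levels, BH-adjusted p was 3.24e-08, 1.44e-08 and 1.19e-08 in the same order.

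Among the groups that expressed H19, KO chow was above WT CDAHFD by a log2 fold change of 2.13 (SE 0.26, BH-adjusted p = 7.84e-04, 4.39-fold). KO CDAHFD was below KO chow by 1.11 (log2 fold change -1.11, SE 0.26, BH-adjusted p = 0.0273). This difference lost its call with scaling by library size alone (-0.89, BH-adjusted p = 0.0657), in a fit of those 2 groups alone (-1.10, BH-adjusted p = 0.0524), and without KO chow replicate 1 (BH-adjusted p = 0.106), KO chow replicate 2 (0.132), KO CDAHFD replicate 1 (0.0624) or KO CDAHFD replicate 2 (0.0626). Between KO CDAHFD and WT CDAHFD, H19 differed by 1.02 (SE 0.24, 95% confidence interval 0.50 to 1.54, BH-adjusted p = 0.131, unadjusted p = 9.73e-04). That difference was past the threshold with DESeq2 (1.03, BH-adjusted p = 0.00672) and with no filter on low counts (1.03, BH-adjusted p = 0.00317). The interaction of genotype and diet was -8.52 (SE 0.50, BH-adjusted p = 6.33e-07). Its size rests on the 6 counts of WT chow and on the prior count, and H19 was tested only because of its counts in the other groups, so the value is no measure of size. In counts, H19 was higher on CDAHFD than on chow in WT livers, and lower on CDAHFD in KO livers.

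H19 is the host of miR-675, which is cut from its first exon, and both mature forms are shown with their seeds (bases 2 to 8) in capitals. The libraries were made from poly-A RNA, and Mir675 itself had no count, so these values say nothing of the level of the microRNA.
miR-675-5p: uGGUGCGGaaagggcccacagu
miR-675-3p: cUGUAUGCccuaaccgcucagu

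Igf2, the fetal growth factor that is the partner of H19 in the domain, had 2, 0, 1 and 0 counts in WT chow, 2, 4 and 0 in WT CDAHFD, 2 and 1 in KO chow and 0, 4 and 2 in KO CDAHFD. These levels were at or near the limit of 3 counts in every group, where no fold change can be given. Igf2 shares 3596 bases of exon with Gm49394 on the same strand, to which no read was assigned. The treatment of reads in such overlaps is not given in the sources used here, so the Igf2 counts may be understated. Mrpl23, the nearest tested gene to H19 at 34782 bases and a mitochondrial ribosomal protein, differed from WT chow by -0.04 in KO chow, and by -0.06 and 0.18 in the WT and KO groups on CDAHFD, on the log2 scale (BH-adjusted p = 0.897, 0.79 and 0.416). Of 11 receptors and binding proteins of IGF2, 2 were higher and 2 lower in KO chow, 3 and 2 in WT CDAHFD, and 2 and 3 in KO CDAHFD, near the shares over all genes tested (22% to 26.9% higher, 17% to 25.4% lower). Igf1r, the receptor that signals for IGF1 and IGF2, rose by log2 fold changes of 0.81, 1.26 and 1.64 in KO chow, in WT CDAHFD and then in KO CDAHFD (SE 0.22, 0.19 and 0.19). Igf1, the paralog of Igf2 that the adult liver secretes, fell by 0.76, 1.20 and 1.35 (SE 0.16, 0.14 and 0.14) in the same order. Insr, the insulin receptor, fell by 0.92, 0.79 and 0.88 in the same order. Igf2r, which removes IGF2 and is itself imprinted, differed by 0.23, 0.51 and 0.35 (BH-adjusted p = 0.486, 0.0645 and 0.193).

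Meg3 was the oncofetal gene with the most counts, and its level followed the diet. Meg3 (ENSMUSG00000021268, also known as Gtl2) lies on the plus strand of chromosome 12 from 109541001 to 109571726. It had 2.33, 1.86, 1.03 and 1.65 CPM in WT chow, against 3.32 and 3.30 CPM in KO chow. It had 58.9, 74.7 and 92.3 CPM in WT CDAHFD and 124, 101 and 76.3 CPM in KO CDAHFD, from 2876 to 5120 counts. The livers on CDAHFD and on chow were far apart, and both KO chow libraries were above the highest of WT chow. The log2 fold change from WT chow was 5.46 (SE 0.25, BH-adjusted p = 1.38e-08, 43.9-fold) in WT CDAHFD and 5.87 (SE 0.26, BH-adjusted p = 8.41e-09, 58.5-fold) in KO CDAHFD. KO CDAHFD was also 30.3-fold above KO chow (log2 fold change 4.92, SE 0.32, BH-adjusted p = 1.46e-05), and KO chow was below WT CDAHFD by 4.51 on the log2 scale (log2 fold change -4.51, SE 0.32, BH-adjusted p = 1.66e-05). KO CDAHFD and WT CDAHFD differed by 0.41 (95% confidence interval -0.07 to 0.90, BH-adjusted p = 0.654), and the interaction was -0.54 (SE 0.36, BH-adjusted p = 0.324).

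The difference of Meg3 between KO chow and WT chow was small, 0.95 on the log2 scale (SE 0.28, BH-adjusted p = 0.0174, 1.93-fold). It lost its call with the replicate number as a block (0.88, BH-adjusted p = 0.0649), in a fit of the 2 groups alone (0.96, BH-adjusted p = 0.0609), and without KO chow replicate 1 (BH-adjusted p = 0.0748) or KO chow replicate 2 (0.0677). All of these values were above 0.

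**Figure D2:**
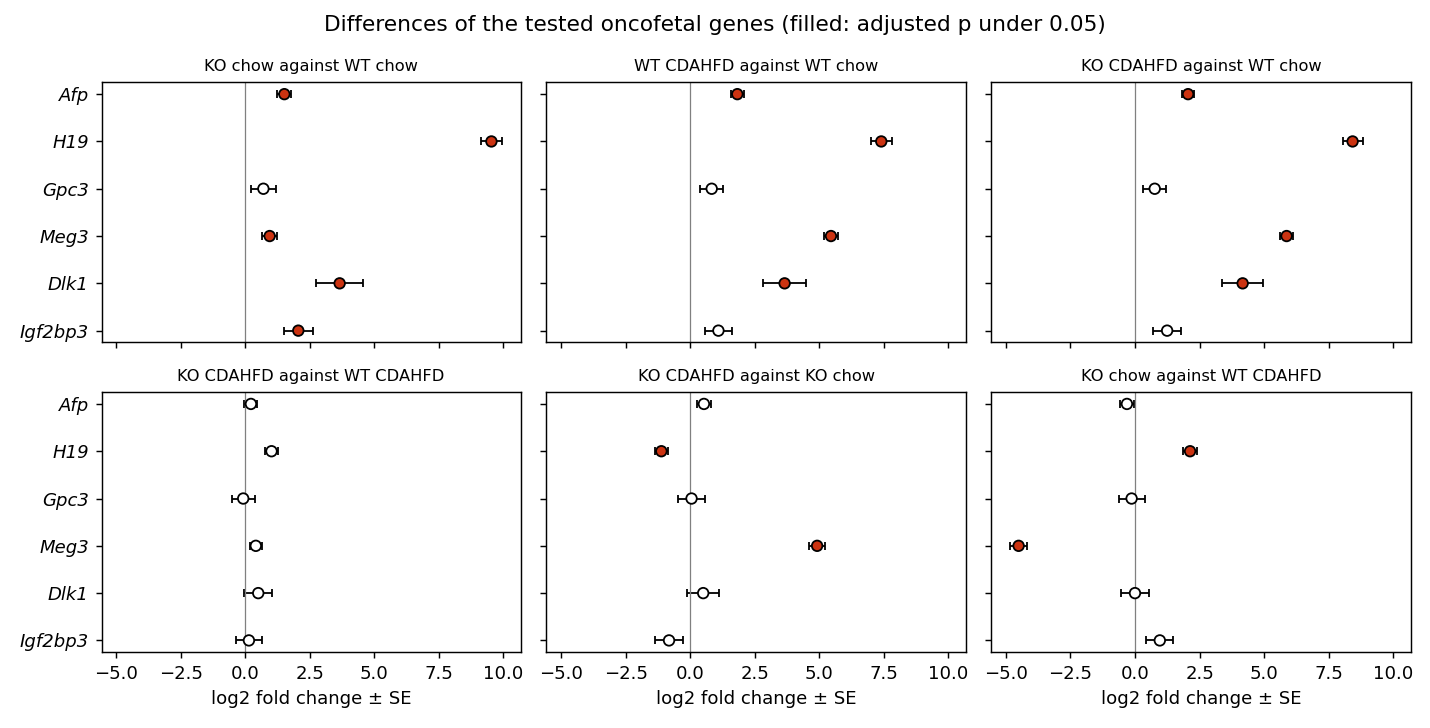
Log2 fold changes of the 6 tested oncofetal genes with their SE in the 6 comparisons of the groups, with filled points where the BH-adjusted p was under 0.05. H19 differs most from WT chow in KO chow (9.54, a fitted value that depends on the prior count), and Meg3 in KO CDAHFD (5.87).

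Dlk1, the paternally expressed gene of the same domain, encodes a membrane protein of the Notch ligand type that marks hepatoblasts and preadipocytes. Dlk1 (ENSMUSG00000040856) lies at 109452823 to 109463336, 77665 bases before Meg3 on the same strand. It had 0, 0, 0 and 2 counts in WT chow, 12, 15 and 13 in WT CDAHFD, 15 and 6 in KO chow and 19, 16 and 12 in KO CDAHFD. Every library outside WT chow was above every WT chow library, at levels of 0.146 to 0.461 CPM. The ratio of pooled counts to WT chow was 15 (exact 95% counting interval 3.88 to 128) in WT CDAHFD, 14.7 (3.60 to 129) in KO chow and 21.3 (5.57 to 181) in KO CDAHFD. By the fit, BH-adjusted p was 0.00267, 0.00639 and 8.28e-04, and the KO chow difference lost its call without KO chow replicate 1 (BH-adjusted p = 0.0947). With WT chow and KO chow fitted alone, Dlk1 did not pass the filter on low counts. KO CDAHFD and KO chow did not differ past the threshold (0.51, 95% confidence interval -0.84 to 1.86). The interaction was -3.15 (SE 1.08, BH-adjusted p = 0.0524), and passed the threshold with DESeq2 (-3.38, BH-adjusted p = 0.0404), with scaling by library size alone (-3.45, BH-adjusted p = 0.0263) and with the replicate block (-5.77, BH-adjusted p = 0.0287).

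The paralog of Dlk1, Dlk2, had at most 4 counts in a library. The start windows of Meg3 and Dlk1 are shown since they are the maternally and the paternally expressed gene of this domain. Meg3 has a further RefSeq start, with its window at chr12:109545148-109545447, which is not shown and holds AGGTCA, read as TGACCT, at -141. In the window of Meg3 at chr12:109540746-109541045, at the start of the annotated gene, on the plus strand, capitals mark overlapping TATA boxes (TATAAA, on both strands, at -29 and -25), a cAMP response element (TGACGTCA) at -57, a CCAAT box at -100, and the motif of ZFP57, a protein that keeps imprints (TGCCGC, read as GCGGCA), at -190. TGACGTCA is found in 1.79% of all 32851 windows and TGCCGC in 11.61%. The window of Dlk1 at chr12:109452573-109452872, on the plus strand, holds none of these, nor AGGTCA (the nuclear receptor motif, in 16.26% of windows), and so has no capitals. The windows shown hold 13 and 9 CpG. The motifs were chosen after the values of the genes were seen, and a match is no sign of binding.
Meg3: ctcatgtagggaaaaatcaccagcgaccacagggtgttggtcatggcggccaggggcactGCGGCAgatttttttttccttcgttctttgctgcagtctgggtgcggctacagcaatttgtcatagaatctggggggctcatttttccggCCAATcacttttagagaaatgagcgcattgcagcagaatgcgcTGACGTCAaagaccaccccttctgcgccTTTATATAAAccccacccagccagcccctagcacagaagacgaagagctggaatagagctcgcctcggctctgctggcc
Dlk1: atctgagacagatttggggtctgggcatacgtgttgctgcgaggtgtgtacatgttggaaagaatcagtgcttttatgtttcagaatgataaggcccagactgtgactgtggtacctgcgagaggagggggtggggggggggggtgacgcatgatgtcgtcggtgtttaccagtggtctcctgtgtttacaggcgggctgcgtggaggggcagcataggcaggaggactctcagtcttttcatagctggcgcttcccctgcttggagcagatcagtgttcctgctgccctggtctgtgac

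Meg3 is the start of a maternally expressed stretch of non-coding RNAs that goes on with Rian, a host of small nucleolar RNAs, and Mirg, a host of microRNAs. From Dlk1 to Dio3 the annotation holds 99 genes, of which 28 had a count and 6 were tested. Rian had 0.367 to 1.13 CPM in WT chow, 40.3, 54.1 and 64.0 in WT CDAHFD, 3.13 and 3.23 in KO chow and 73.9, 79.1 and 49.9 in KO CDAHFD. Its log2 fold change from WT chow was 6.01 (SE 0.29, BH-adjusted p = 1.38e-08) in WT CDAHFD, 6.37 (SE 0.29, BH-adjusted p = 1.03e-08) in KO CDAHFD and 1.96 (SE 0.32, BH-adjusted p = 3.90e-04) in KO chow. Mirg had 0 to 0.272 CPM in WT chow, 2.07 to 2.47 in WT CDAHFD, 0.0544 and 0.146 in KO chow and 2.50 to 3.10 in KO CDAHFD. It rose by 4.57 (SE 0.53) and 4.86 (SE 0.53) on the log2 scale in the groups on CDAHFD, and in KO chow it differed by 0.13 (SE 0.84, BH-adjusted p = 0.917). Mirg had 7, 1, 0 and 2 counts in WT chow and 2 and 6 in KO chow, and was tested because of its counts on CDAHFD. The sizes of its differences therefore depend on the prior count. The maternal RNAs were thus high together in all 6 livers on CDAHFD. Besides these and Dlk1, which was higher in all 3 groups, a pair of genes in the stretch was tested. Gm34667 fell by 1.61, 1.80 and 1.87 in KO chow, in WT CDAHFD and then in KO CDAHFD, and Dio3os, which starts next to the deiodinase gene Dio3 on the opposite strand, differed by -0.31, -0.88 and -0.09 (BH-adjusted p = 0.679, 0.152 and 0.887). The paternally expressed Rtl1 had at most 4 counts in a library and Dio3 at most 6, and neither was tested.

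**Figure D3:**
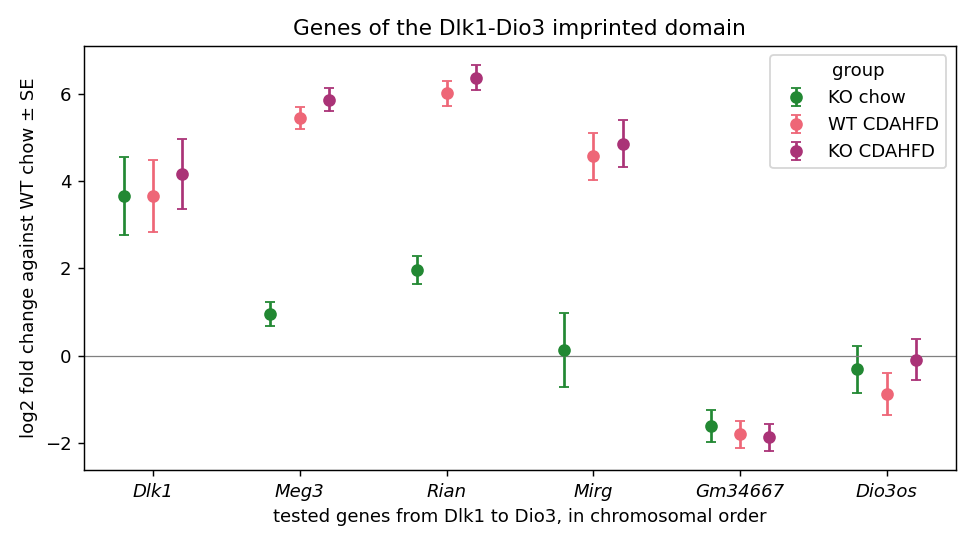
Log2 fold changes from WT chow with their SE for the 6 tested genes between Dlk1 and Dio3 on chromosome 12, in chromosomal order. Meg3, Rian and Mirg are at 4.57 to 6.37 in both groups on CDAHFD, and at 0.13 to 1.96 in KO chow, while Dlk1 is at 3.66 to 4.17 in all 3 groups. The values of Dlk1 and Mirg are fitted values that depend on the prior count.

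Rian and Mirg were also the genes closest to Meg3 in their pattern. Over the 12905 genes that averaged 50 counts or more, the root mean square difference of centred log2 CPM over the 12 libraries was 0.39 for Rian and 0.70 for Mirg, followed by Eef1a2, an elongation factor of neurons and muscle, at 0.79. For H19 the closest was Slc7a11, the cystine transporter, at 0.72, which had means of 0.0493, 10.54, 27.3 and 7.56 CPM in WT chow, WT CDAHFD, KO chow and KO CDAHFD. Sprr1a followed at 0.94 and Insyn1 at 0.98. For Afp, Cdt1, a DNA replication licensing factor, Tmem200b and Orai2, a calcium channel subunit, were at 0.24, 0.25 and 0.25. Meg3 is the host of miR-770, shown with its seeds in capitals, and Mir770 had no count here.
miR-770-5p: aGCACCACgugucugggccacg
miR-770-3p: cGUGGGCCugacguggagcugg

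Beyond the oncofetal genes, 19 of 23 other imprinted genes were tested, and 7 were higher and 1 lower in KO chow, 7 and 2 in WT CDAHFD, and 9 and 1 in KO CDAHFD. Over all genes tested, 22%, 26.1% and 26.9% were higher and 17%, 25% and 25.4% lower in the same order. The median log2 fold changes of the imprinted genes were 0.66, 0.51 and 0.83, against 0.00, -0.05 and -0.04 over all genes. Plagl1, a zinc finger factor known to regulate other imprinted genes, rose by 1.76, 1.80 and 1.97 on the log2 scale (SE 0.24, 0.22 and 0.22). Cdkn1c, a cell cycle inhibitor, rose by 0.97, 1.07 and 1.74 (BH-adjusted p = 0.0425, 0.0122 and 4.76e-04). Asb4 rose by 2.84, 2.88 and 3.40. Gnas was the gene that was lower in KO chow. In WT CDAHFD the lower genes were Mest and Slc38a4, an amino acid transporter, which was also the lower gene in KO CDAHFD. With scaling by library size alone, 13 of these genes were higher in WT CDAHFD and 14 in KO CDAHFD. At that scaling 9092 and 9775 of all 17358 genes tested were higher. The list includes Rian and Mirg, the RNAs of the Meg3 domain described above, of which Mirg was tested because of its counts on CDAHFD.

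Gpc3 (ENSMUSG00000055653, on the minus strand of chromosome X from 52272426 to 52613950) was detected in all libraries at a low level. It had 0.699, 1.26, 0.233 and 0.780 CPM in WT chow, 1.13, 1.07 and 1.81 in WT CDAHFD, 1.5 and 0.946 in KO chow and 1.02, 1.82 and 0.975 in KO CDAHFD. All groups overlapped WT chow. The log2 fold changes were 0.71 (SE 0.50, BH-adjusted p = 0.284), 0.84 (SE 0.44, BH-adjusted p = 0.130) and 0.76 (SE 0.44, BH-adjusted p = 0.168) in KO chow, in WT CDAHFD and then in KO CDAHFD. With scaling by library size alone the differences in WT CDAHFD (1.39, BH-adjusted p = 0.0152) and KO CDAHFD (1.36, BH-adjusted p = 0.0170) passed the threshold, as they did without WT chow replicate 2 (BH-adjusted p = 0.0341 and 0.0431). Other glypicans of the liver moved in both directions. Gpc4, the neighbour of Gpc3 on the X chromosome, fell by 0.68, 0.62 and 0.60 on the log2 scale (SE 0.11, 0.10 and 0.10), from 92.0 to 109.4 CPM in WT chow to at most 69.1 CPM elsewhere. Gpc1 rose by 1.52, 1.33 and 1.66, and Gpc6 by 1.65, 1.90 and 1.77. Gpc2 rose by 2.93 on the diet in WT and 3.85 on the diet in KO livers, and differed by 2.10 in KO chow (BH-adjusted p = 0.0561). It had 0 to 0.1 CPM in WT chow, at or under the limit of 3 counts, and at most 28 counts in a library. The sizes of these Gpc2 differences therefore depend on the prior count. Gpc5 had at most 3 counts in a library. Together with Igf1 and Igf2bp2, 3 of the 6 tested paralogs of the oncofetal genes were higher and 2 lower in KO chow, and 4 and 2 in each group on CDAHFD. Over all genes tested, 22% were higher and 17% lower in KO chow. In WT CDAHFD these shares were 26.1% and 25%, and in KO CDAHFD 26.9% and 25.4%. Gpc2 was tested because of its counts in the other groups, so these paralog counts are not strictly comparable with the shares.

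Igf2bp3 (ENSMUSG00000029814, on the minus strand of chromosome 6 from 49085223 to 49214957) was higher in KO chow than in WT chow. It had 0.349, 0.063, 0.1 and 0.138 CPM in WT chow, 0.435 and 0.897 CPM in KO chow, 0.369, 0.330 and 0.328 in WT CDAHFD and 0.267, 0.321 and 0.547 in KO CDAHFD. KO chow was above all WT chow libraries, while the groups on CDAHFD overlapped WT chow replicate 1. The log2 fold change in KO chow was 2.06 (SE 0.55, BH-adjusted p = 0.0104), and without KO chow replicate 2 it was 1.44 (BH-adjusted p = 0.145). In WT CDAHFD it was 1.10 (SE 0.53, BH-adjusted p = 0.102) and in KO CDAHFD 1.24 (SE 0.53, BH-adjusted p = 0.0669). These passed the threshold without WT chow replicate 1 (1.81, BH-adjusted p = 0.0138, and 1.97, BH-adjusted p = 0.00841) and with scaling by library size alone (1.64, BH-adjusted p = 0.0207, and 1.85, BH-adjusted p = 0.0107). Over 1529 bases the exons of Igf2bp3 overlap those of Malsu1 on the opposite strand, which had 7003 counts against 166 of Igf2bp3. Strand was not kept in these libraries, so the reads of Igf2bp3 cannot be told apart from those of Malsu1 there, and its values are uncertain. Igf2bp2, the adult member of the family, had 1.28 to 2.06 CPM in WT chow and rose by 1.28, 2.23 and 1.78 on the log2 scale in KO chow, in WT CDAHFD and then in KO CDAHFD (SE 0.24, 0.22 and 0.22). Igf2bp1 had at most 2 counts in a library.

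Lin28b (ENSMUSG00000063804, on the minus strand of chromosome 10 from 45376620 to 45486395) had 2 counts in WT CDAHFD replicate 2 and none in the other 11 libraries, and Lin28a had at most 2. Any level of these genes was below the limit of 3 counts in a library. Of 19 genes of the Lin28 and let-7 pathway, 16 were tested, and 7 were higher and 2 lower in KO chow, 9 and 1 in WT CDAHFD, and 9 and 2 in KO CDAHFD, beside 22%, 26.1% and 26.9% higher and 17%, 25% and 25.4% lower over all genes tested. The median log2 fold changes of the list were 0.42, 0.50 and 0.62. The higher genes include targets of let-7. Myc, a growth-promoting transcription factor, rose by 3.76, 3.83 and 3.19 on the log2 scale (SE 0.28, 0.27 and 0.26), and Hmga1, a chromatin protein, by 0.72, 1.28 and 0.97. Hmga2, its fetal relative, rose by 1.46 in KO CDAHFD (BH-adjusted p = 0.0429), and differed by 1.62 in KO chow (BH-adjusted p = 0.0503) and -0.37 in WT CDAHFD (BH-adjusted p = 0.66). It had 0.0388 to 0.133 CPM in WT chow, near the limit of 3 counts, and at most 14 counts in a library. Trim71, another fetal target, had at most 9 counts in a library.

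Of the 6 tested oncofetal genes, 5 were higher in KO chow than in WT chow, where 39% of all genes tested were called, 22% higher and 17% lower. In WT CDAHFD 4 were higher, beside 51.1% called, 26.1% higher and 25% lower. In KO CDAHFD 4 were higher, beside 52.4% called, 26.9% higher and 25.4% lower. None of the 6 was lower in these comparisons, which share the WT chow libraries. H19, Dlk1 and Igf2bp3 entered the test through the groups where they were high, so these counts cannot be set against the share over all genes. Between KO CDAHFD and WT CDAHFD none of the 6 was called in the main edgeR fit, where 0.357% of all genes were (0.0864% higher and 0.271% lower). In that fit 1 gene (H19) was at an unadjusted p under 0.05, and it was called by DESeq2 and by edgeR with no filter on low counts. Between KO CDAHFD and KO chow, Meg3 was higher and H19 lower, beside 6.19% of all genes called (3.76% higher and 2.44% lower). Between KO chow and WT CDAHFD, H19 was higher and Meg3 lower, beside 6.12% (2.71% higher and 3.42% lower). Afp and H19 passed the test of the interaction, both below 0, beside 23.1% (8.63% above 0 and 14.5% below). The annotated exons of a gene, all transcripts joined, cover 18089 bases for Meg3 and 2460 for H19. An order of genes per length of exon therefore depends on which transcripts are made. In CPM, the mean of Meg3 in KO CDAHFD (100.3) was above that of H19 in KO chow (43.4). Per length of all annotated exons, H19 in KO chow was the highest of the 8 genes, at 17.6 ± 2.37 CPM per kb (SD, n = 2). H19 in KO CDAHFD followed at 8.16 ± 2.17 (SD, n = 3). Meg3 reached 5.55 ± 1.32 CPM per kb (SD, n = 3) in KO CDAHFD and 4.16 ± 0.922 (SD, n = 3) in WT CDAHFD. Afp was at 2.26 ± 0.170 CPM per kb (SD, n = 3) in KO CDAHFD, and Gpc3, Dlk1, Igf2bp3, Igf2 and Lin28b were under 0.5 in every group.

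Further markers of the fetal liver and of liver cancer were higher in nearly all cases. Of 15 tested genes, 14 were higher in KO chow and 15 in each group on CDAHFD. Their median log2 fold changes were 2.47, 2.96 and 3.41 in KO chow, in WT CDAHFD and then in KO CDAHFD. Over all genes tested, 22%, 26.1% and 26.9% were higher in the same order, with medians of 0.00, -0.05 and -0.04. Spink1 of this list had 0 to 0.0333 CPM in WT chow, under the limit of 3 counts. It was tested because of its counts in the other groups, so the counts of the list are not strictly comparable with these shares. Some genes of this list are also in the list of cholangiocyte markers. Ly6d, a surface protein, had 0.183 to 0.582 CPM in WT chow, 57.4 to 70.0 in WT CDAHFD, 37.8 and 35.0 in KO chow and 18.4 to 22.5 in KO CDAHFD. Pkm, whose M2 form is the pyruvate kinase of fetal and tumour cells, rose by 2.06, 2.94 and 2.85 on the log2 scale, though the counts do not separate the forms. Sox4, a transcription factor of progenitor cells, rose by 3.07, 3.09 and 3.41. The exception in KO chow was Sox9 (0.65, BH-adjusted p = 0.179). Sall4 had at most 1 count in a library. All 10 proliferation genes, such as Mki67 and Top2a, were higher in each of the 3 groups, beside the same shares over all genes. Some of these were also low in WT chow, such as Bub1 at 0.0459 to 0.600 CPM, so the same limit holds.

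**Figure D4:**
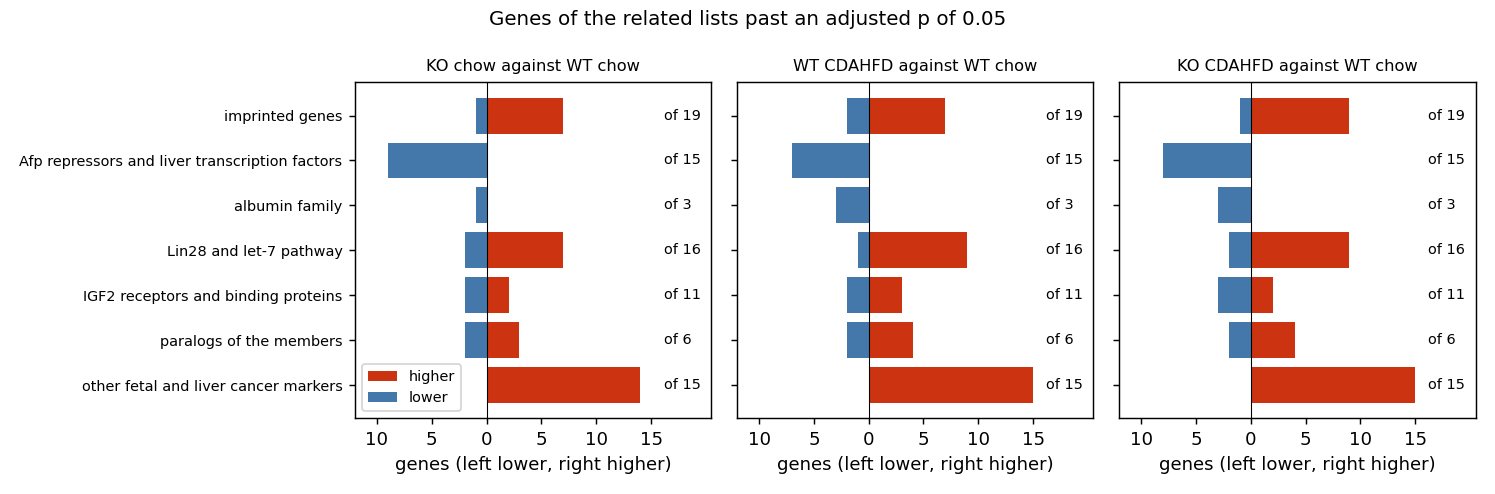
Number of genes in 7 lists related to the oncofetal genes that were higher (right) or lower (left) than in WT chow at an adjusted p under 0.05, with the number tested at the right. Repressors and transcription factors of the liver are found on the left (9, 7 and 8 of 15), and other fetal and liver cancer markers on the right (14, 15 and 15 of 15). Over all genes tested, 17%, 25% and 25.4% were lower and 22%, 26.1% and 26.9% higher in the same order. Some genes of the lists were near 0 counts in WT chow and entered the test through the other groups.

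Markers of other liver cells moved with the groups too. The 12 stellate cell and fibroblast markers summed to 157 to 280 CPM in WT chow, 1392 to 1465 in WT CDAHFD, 1110 to 1293 in KO chow and 1518 to 2167 in KO CDAHFD, and 9, 8 and 10 of the 12 were higher in KO chow, in WT CDAHFD and then in KO CDAHFD. The 8 cholangiocyte markers, some of which are also in the list of fetal and cancer markers, summed to 46.8 to 79.9 CPM in WT chow, 365 to 587 in WT CDAHFD, 168 to 292 in KO chow and 581 to 897 in KO CDAHFD, with 7, 8 and 8 of 8 higher. None of these stellate cell and cholangiocyte markers was at 0 in all libraries. The 8 macrophage markers summed to 289.8 to 519 CPM in WT chow, 770.3 to 960.1 in WT CDAHFD, 893 to 1180.4 in KO chow and 573 to 945 in KO CDAHFD, and 7, 5 and 5 of them were higher in KO chow, in WT CDAHFD and then in KO CDAHFD. In the same order, 4, 3 and 3 of 6 markers of T and NK cells and 3, 3 and 4 of 4 tested neutrophil markers were higher, as were 1, 2 and 2 of 6 mesothelial markers. Of 7 endothelial markers, 1 was higher in KO chow and 3 were lower in each group on CDAHFD. Of 6 tested erythroid markers, 1 was higher and 2 lower in KO chow, 6 were lower in WT CDAHFD and 2 in KO CDAHFD. The 4 B cell markers summed to 2.57 to 7.37 CPM over all libraries, and each group overlapped WT chow. Of the 8 hepatocyte markers 4, 8 and 8 were lower. Over all genes tested, 22%, 26.1% and 26.9% were higher in KO chow, in WT CDAHFD and then in KO CDAHFD. In the same order, 17%, 25% and 25.4% were lower. These counts of markers and of all genes were taken with TMM scaling, and those over all genes change with scaling by library size alone. The part of the cell makeup in the values of the oncofetal genes was not tested.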

How the data were processed

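Poly-A selected, non-directional RNA libraries of 12 livers were sequenced on an Illumina NovaSeq. Per the paper and the submitters' notes, the authors checked reads with FastQC 0.11.5 and aligned them to GRCm38 with STAR 2.7.3a. The deposited values are raw read counts per Ensembl gene, without normalization, and the counting program and annotation are not given in the sources used here. Groups come from the sample labels. The paper gives the number of mice per group as the same for all groups, whereas the labels give 4, 3, 2 and 3 libraries, and the labels name no batch.

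Symbols, positions and exon lengths come from GENCODE M21 (GRCm38), which holds 52081 of 55357 identifiers (94.08%). Genes were filtered with filterByExpr, scaled by TMM and fitted with a mean per group over all 12 libraries in edgeR 4.0.16 (quasi-likelihood test, R 4.3.3). Adjusted p are Benjamini-Hochberg values over the 17358 genes tested, with a threshold of 0.05. The p-values set a difference against the spread between libraries within groups, which was estimated over all 12 libraries together. DESeq2 1.42.0 was an alternative. The SE is the log2 fold change over the square root of F. Pooled ratios carry exact (Clopper-Pearson) intervals for counting error only. Replicates of a group differed by more than counting noise, with chi-square per degree of freedom of at least 18.1. The steps were tested on simulated data in which few genes changed, as many up as down, none of them near 0 counts in WT chow. That test therefore says nothing of the scaling where many genes differ, nor of genes near 0 counts.

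The genes, lists, motifs and neighbours were chosen with earlier results of these data known. Of the lists, the text names genes set by name or with the smallest adjusted p in WT CDAHFD, plus lone exceptions, which were chosen after their values were seen; 1 gene of a list is not reported here by name. Alternatives were other scalings, no filter, DESeq2, a replicate block, the compared groups alone, a clock gene score as covariate, and leaving out each library.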

Additional observations from a re-analysis of the deposited data

Results flagged for a closer look

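The effect of the diet differed between the genotypes for 2 of the oncofetal genes. For H19 the interaction of genotype and diet was -8.52 on the log2 scale (BH-adjusted p = 6.33e-07), a fitted value that rests on the 6 counts of WT chow and on the prior count and is no measure of size. H19 was tested because of its counts in the other groups. All 3 WT CDAHFD libraries were above the 4 WT chow libraries, and all 3 KO CDAHFD libraries were below both KO chow libraries. The latter difference (-1.11, BH-adjusted p = 0.0273) lost its call with scaling by library size alone, with those groups fitted alone, and without either KO chow library or KO CDAHFD replicate 1 or 2. For Afp the interaction was -1.29 (BH-adjusted p = 0.0243), with all 3 WT CDAHFD libraries above all 4 WT chow libraries, and all 3 KO CDAHFD libraries above both KO chow libraries by a smaller step (0.54, BH-adjusted p = 0.286). The Afp interaction lost its call with the replicate block (BH-adjusted p = 0.0756) and without WT CDAHFD replicate 1 or 2, KO chow replicate 2 or KO CDAHFD replicate 2 (BH-adjusted p from 0.0554 to 0.151). The test is the quasi-likelihood test of edgeR, with Benjamini-Hochberg (BH) adjustment.

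Among the tested oncofetal genes in WT chow, the group of 4, Dlk1 had a library that stood apart from the others. The gap to the nearest library was 1 times the range, since 3 libraries had no count and replicate 4 had 2. Chance flags about 1 in 20 groups, and 2 counts are under the limit of 3.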

How the results depend on the processing

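Over the alternatives, 741 values kept their direction and side of the threshold, 17 lost a call, 17 gained a call and 16 changed sign; the causes were not tested except where fewer libraries enter. The differences of Afp, H19, Meg3 and Dlk1 from WT chow in WT CDAHFD and KO CDAHFD kept their calls in every alternative. Of the 5 oncofetal genes higher in KO chow, 3 were called with the 2 groups fitted alone, where Meg3 missed the threshold and Dlk1 failed the filter, and 3 to 5 with a library left out. For KO CDAHFD against WT CDAHFD the count of higher genes went from 0 to 1 with no filter and with DESeq2. For KO CDAHFD against KO chow the count of lower genes went from 1 to 0 with scaling by library size only and with the groups alone, and was 0 to 1 with a library left out. For the interaction, 2 genes were called, 4 with library size only, and 1 to 3 with a library left out. Signs changed only for differences that were not called. With the clock score as covariate, Gpc3 was at 0.21 and Igf2bp3 at -0.034 in KO CDAHFD against WT CDAHFD, and Dlk1 at 0.019 in KO chow against WT CDAHFD. With a library left out, Gpc3 ran from -0.42 to 0.21 and Igf2bp3 from -0.22 to 0.35 in KO CDAHFD against WT CDAHFD, Gpc3 from -0.29 to 0.43 and Dlk1 from -0.065 to 1.42 in KO CDAHFD against KO chow, and Afp from -0.74 to 0.0068, Gpc3 from -0.50 to 0.16 and Dlk1 from -0.90 to 0.57 in KO chow against WT CDAHFD. With library size only, 7037 genes were higher and 1149 lower in KO chow (3814 and 2949 with TMM), 9092 and 1170 in WT CDAHFD (4522 and 4341), and 9775 and 1095 in KO CDAHFD (4674 and 4417). DESeq2 called 118 genes higher and 132 lower between KO CDAHFD and WT CDAHFD, against 15 and 47. The replicate numbers only name the libraries: of 15 same-numbered pairs 3 had a correlation of deviations over 0.1 (-0.24 to 0.27), and 4 of 12 libraries correlated best with their own number. The replicate block ended the calls of Meg3 in KO chow (0.88) and of the Afp interaction (-1.21) and made that of Dlk1 (-5.77). With KO chow at 2 libraries, leaving either out leaves a lone library that is assumed to vary like the other groups. Depth limits Igf2, Lin28b and, in WT chow, H19 and Dlk1.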
